A study of Mus musculus with 5 samples.

Results

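The genes described here encode the machinery that docks, primes and fuses synaptic vesicles, together with cell adhesion proteins that hold the 2 sides of a synapse together. They were chosen by symbol alone: the syntaxins, the SNAP and VAMP proteins, the syntaxin-binding proteins, the synaptotagmins and their relatives, the Doc2 proteins and the complexins. Rims, Unc13, Rab3, synapsin and Sv2 genes, Syp, Synpr, the neurexins, the neuroligins and the Lrrtm genes complete the set. This gave 93 of the 22071 RefSeq symbols in the expression table, with 137 RefSeq transcripts. Poly(A)-selected RNA had been sequenced from brain regions that were microdissected and snap-frozen. The mice were wild-type C57BL/6 adult males, and the labels name no treatment. The subventricular zone (SVZ), the neurogenic layer along the lateral ventricle, had 2 samples labelled as biological replicates. The olfactory bulb (OB), the dentate gyrus (DG) and the striatum (STR), the design's non-neurogenic control tissue, had 1 sample each. The labels give no age in weeks and do not say how many animals went into a sample.

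Release begins when a vesicle SNARE, mainly a VAMP protein, zips together with syntaxin and SNAP proteins of the plasma membrane. Syntaxin-binding proteins and Unc13 proteins prepare this complex, complexins hold or promote it, synaptotagmins and Doc2 proteins make fusion respond to calcium, and Rims and Rab3 proteins tether vesicles at the active zone. Neurexins on the presynaptic side bind neuroligins and Lrrtm proteins on the postsynaptic side, and neurons use different members of these families in different brain regions.

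The values were FPKM (fragments per kilobase of transcript, relative to all mapped fragments), which are per length, so levels may be compared between genes. Differences between regions are on the scale of log2(FPKM + 1), on which 1 unit is a 2-fold change for well-expressed genes and less than the true change for low ones. Of the 93 members, 84 reached 1 FPKM in at least 1 library, 81 reached 5 FPKM and 22 reached 100 FPKM. The 9 others, Cplx4, Stx11, Stx19, Syt8, Syt15, Sytl3, Sytl4, Unc13d and Vamp7, stayed under 1 FPKM everywhere, and Vamp7 was listed at 0 in all 5 libraries. The deposited locus of Vamp7 is on X_random, not on the assembled X chromosome. Whether reads could be assigned there was not tested, so its 0 is not read as absence of Vamp7 RNA. The deposited locus of 12 members also holds another gene: Doc2a, Lrrtm1, Lrrtm2, Lrrtm3, Rab3a, Snap29, Stx19, Syn1, Syn2, Syn3, Syt1 and Syt12. The sources used here do not say whether counting used strand, so reads of overlapping genes could not be told apart there.

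The libraries fell into 2 sets that cut across the regions. The first SVZ sample, OB and DG formed one set, and the second SVZ sample and STR the other. Gapdh, a glycolytic gene often used as a reference, stood at 457, 563 and 414 FPKM in the first set and at 32.4 and 39.5 FPKM in the second. Between the 2 SVZ samples, the difference of a member followed the GC content of its transcript (Spearman rho = 0.666 over 84 members, and 0.706 over 13894 coding genes). Between the second SVZ sample and STR it did not follow GC (rho = -0.0813 over the members). These correlations are across genes of the same 2 libraries, which are not independent. The median coding gene was 0.53 units higher in OB than in STR, 0.26 higher in DG than in STR and 0.24 higher in SVZ than in STR. Comparisons of SVZ with STR through the second SVZ sample, and of OB or DG with SVZ through the first, stay within a set. Staying within a set did not remove the relation to GC content for OB. For the first SVZ sample minus OB, rho was -0.450 over the members and -0.275 over coding genes. Over the members, rho was -0.153 for the first SVZ sample minus DG and 0.251 for OB minus DG. The part of GC content in the OB levels was not tested. OB or DG against STR crosses the sets, and a bridged value adds the difference from the first SVZ sample to that of the second SVZ sample from STR.

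The labelled regions carried their defining markers. Cdhr1 of olfactory bulb projection neurons stood at 216 FPKM in OB against at most 8.28 elsewhere, and C1ql2 of dentate granule neurons at 217 FPKM in DG against at most 1.15 elsewhere. The striatal dopamine receptor gene Drd1a reached 158 FPKM in STR and 108 and 119 FPKM in the SVZ samples, against at most 2.13 in OB and DG. Of the 5 striatal markers listed, only Drd1a was higher in STR than in both SVZ samples. Together the 5 summed to 3714 and 2733 FPKM in the SVZ samples, 2603 in STR, 275 in OB and 49.9 in DG, so SVZ carried striatal markers at levels like those of STR. Ependymal Foxj1 was at most 7.49 FPKM outside SVZ and reached 61.0 and 23.5 FPKM in its samples. The 13 pan-neuronal markers found, none of them at 0 in any library, summed to 2401 and 1524 FPKM in the SVZ samples, 3076 in OB, 2739 in DG and 1765 in STR. In bulk tissue, fewer cells of a type and less RNA per cell cannot be told apart. The part of these marker levels in the differences between regions was not tested.

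**Figure D1:**
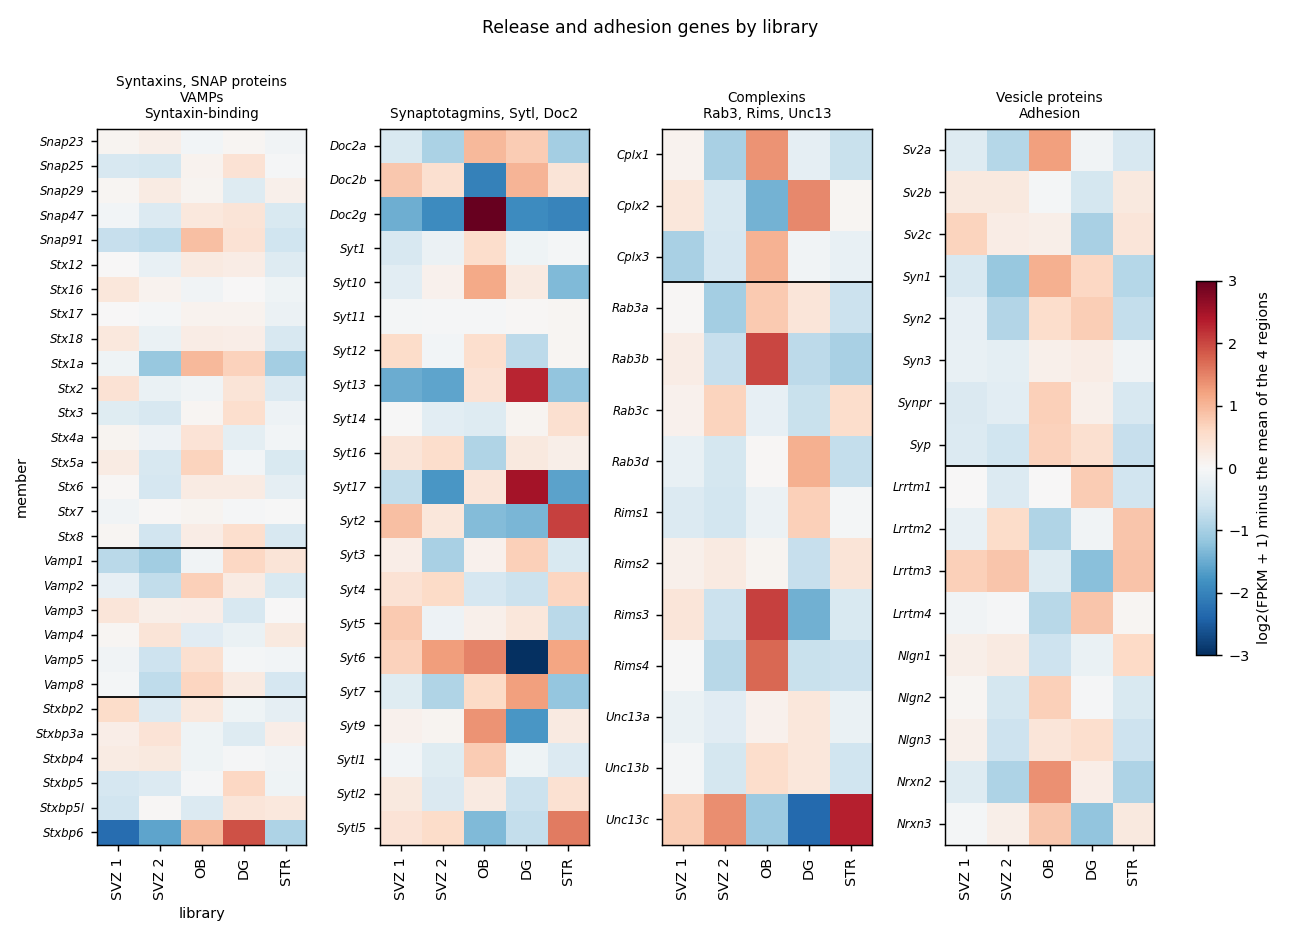
Difference in log2(FPKM + 1) of members at 1 FPKM or more from their mean over the 4 regions, by library (columns) and member (rows, grouped by role, with the 2 SVZ samples shown separately). Colour is capped at 3 units; the SNARE rows at the left are pale, while Doc2g, Syt13, Syt17, Syt6, Rims3, Unc13c and Stxbp6 carry the deepest colours.

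A vesicle protein gene whose RNA was assigned to transcripts with different starts in different regions is shown first, with its sequence. Synpr (synaptoporin, a synaptic vesicle membrane protein related to synaptophysin, on chromosome 14 at 14117294-14447983 in mm9) has RefSeq transcripts of 2551 and 2657 bases. The 2551-base transcript stood at 3.60 and 1.38 FPKM in the SVZ samples, 63.9 in OB, 143 in DG and 1.36 in STR. The 2657-base transcript stood at 91.8 and 102 FPKM in the SVZ samples, 150 in OB and 90.3 in STR, and was listed at 0 in DG. The shorter transcript was therefore assigned 3.77% and 1.34% of Synpr FPKM in the SVZ samples, 29.9% in OB, 100% in DG and 1.49% in STR. DG and OB differ in this way from the first SVZ sample within their own library set. DG listed more RefSeq transcripts at 0 than any other library, 10270 against 5822 to 6799. The part of this in the Synpr 0 and the 100% in DG was not tested. Because OB, DG and STR had 1 library each, the shift has no replicate check in those regions, and the gap of 2.43 percentage points between the SVZ samples is its only measured spread. In the GENCODE annotation of GRCm38 both transcripts end together, and it starts the shorter one at base 13284780 and the longer one downstream at base 13454029 of chromosome 14, both on the plus strand. The 250 bases before each RefSeq start, which for the longer transcript lies slightly upstream of GENCODE's, on GRCm38.p6 (chr14:13284530-13284779 and chr14:13453708-13453957, plus strand), are printed to show how unlike the 2 starts are, with each CpG in capitals.
Synpr start of the 2551-base transcript: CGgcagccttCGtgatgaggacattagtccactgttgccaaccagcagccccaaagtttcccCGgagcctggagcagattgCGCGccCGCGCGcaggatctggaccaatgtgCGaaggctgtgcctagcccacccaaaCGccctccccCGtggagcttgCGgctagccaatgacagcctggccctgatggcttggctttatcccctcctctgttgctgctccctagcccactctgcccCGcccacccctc
Synpr start of the 2657-base transcript: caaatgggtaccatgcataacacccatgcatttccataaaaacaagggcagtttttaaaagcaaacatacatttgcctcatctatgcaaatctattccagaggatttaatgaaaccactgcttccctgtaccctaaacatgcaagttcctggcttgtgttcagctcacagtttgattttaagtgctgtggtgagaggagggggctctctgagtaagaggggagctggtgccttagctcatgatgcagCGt
The upstream start held 13 CpG and 64.0% G and C, and the downstream start 1 CpG and 44.4%. The median over the 12827 RefSeq promoters of coding genes at 1 FPKM or more was 15 CpG, and 3.81% of them held at most 1. Summed over both transcripts, Synpr itself differed far less, at 95.4 and 103 FPKM in the SVZ samples, 214 in OB, 143 in DG and 91.7 in STR.

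**Figure D2:**
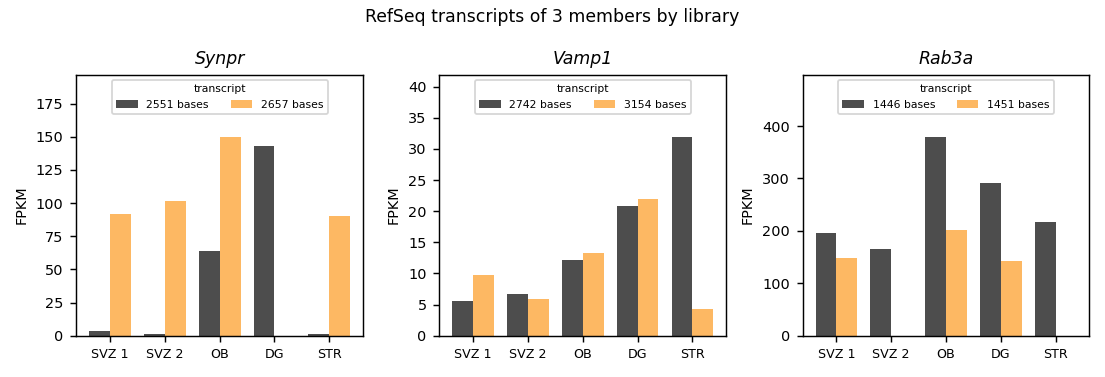
FPKM of the RefSeq transcripts of Synpr, Vamp1 and Rab3a in each library, with 1 bar per transcript and library and lengths in bases. The 2551-base Synpr transcript reached 143 FPKM in DG where the other was at 0, the 2742-base Vamp1 transcript led in STR, and the 1451-base Rab3a transcript was at 0 in the second SVZ sample and STR.

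Doc2g, a C2-domain protein of the Doc2 family, varied most between regions of all 84 members. It stood at 3.06 and 2.07 FPKM in the SVZ samples, 524 in OB, 2.07 in DG and 1.86 in STR. OB was thus far above every other library, and these lay between 1.86 and 3.06 FPKM. The difference of OB from SVZ was 7.22 ± 0.44 units (SE; limma adjusted p = 0.140), and it was 7.01 against the first SVZ sample alone and 7.42 against the second alone.
Its relatives did not share the pattern: Doc2b, a calcium sensor of spontaneous release, stood at 52.4 and 41.4 FPKM in the SVZ samples, 6.53 in OB, 60.6 in DG and 38.8 in STR. Doc2g thus made up 96.2% of Doc2 FPKM in OB and between 2.77% and 5.09% in the other libraries. Doc2b made up 1.2% in OB and at least 81.1% elsewhere. Doc2a, which shares its locus with Ino80e, stood at 4.69 and 3.02 FPKM in the SVZ samples, 14.2 in OB, 12.1 in DG and 2.80 in STR. The sensory axon marker Omp stood at 187 FPKM in OB and at most 0.567 elsewhere, and the part of such axons in the OB level of Doc2g was not tested.

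Complexins divided OB from DG. Cplx1 and Cplx2, which bind the assembled SNARE complex and set how readily it fuses, were the members of this family at high levels. Cplx1 stood at 355 and 167 FPKM in the SVZ samples, 838 in OB, 273 in DG and 208 in STR. Cplx2 stood at 502 and 283 FPKM in the SVZ samples, 147 in OB, 1073 in DG and 413 in STR. OB had the highest Cplx1 and the lowest Cplx2, and DG the highest Cplx2. The ratio of Cplx1 to Cplx2 within a library, which no scaling of the library can change, was 0.707 and 0.590 in the SVZ samples, 5.68 in OB, 0.255 in DG and 0.503 in STR. Cplx1 made up 41.4% and 37.0% of complexin FPKM in the SVZ samples (39.2% ± 3.1, SD, n = 2), 84.7% in OB, 20.3% in DG and 33.4% in STR. OB lay above both SVZ samples, and DG and STR lay below both. STR was closest to the second SVZ sample, which is of its own set. The SD comes from 2 libraries of different sets, so it cannot decide whether STR differs from SVZ. For single genes, the difference of OB from DG was 1.61 ± 0.84 units for Cplx1 (SE; limma adjusted p = 0.620) and -2.86 ± 0.78 units for Cplx2 (SE; limma adjusted p = 0.318). Cplx3, best known from the retina, reached 3.68 FPKM in OB and at most 1.10 elsewhere, and Cplx4 stayed at or under 0.0822 FPKM.
The 250 bases before the RefSeq starts of Doc2g, Cplx1 and Cplx2 are printed, with each CpG in capitals, because these 3 genes separated OB or DG from the other regions. They lie at chr19:4003135-4003384 on the plus strand for Doc2g, chr5:108550028-108550277 on the minus strand for Cplx1 and chr13:54302306-54302555 on the plus strand for Cplx2 (GRCm38.p6).
Doc2g: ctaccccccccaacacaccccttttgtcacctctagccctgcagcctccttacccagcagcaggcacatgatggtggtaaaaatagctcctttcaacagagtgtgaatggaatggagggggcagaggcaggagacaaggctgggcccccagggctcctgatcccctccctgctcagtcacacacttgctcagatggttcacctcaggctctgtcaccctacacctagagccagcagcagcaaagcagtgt
Cplx1: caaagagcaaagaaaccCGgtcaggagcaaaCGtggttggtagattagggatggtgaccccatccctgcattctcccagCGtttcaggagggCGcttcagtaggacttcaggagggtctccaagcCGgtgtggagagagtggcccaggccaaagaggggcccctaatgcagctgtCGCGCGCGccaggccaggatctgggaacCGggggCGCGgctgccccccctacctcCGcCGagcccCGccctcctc
Cplx2: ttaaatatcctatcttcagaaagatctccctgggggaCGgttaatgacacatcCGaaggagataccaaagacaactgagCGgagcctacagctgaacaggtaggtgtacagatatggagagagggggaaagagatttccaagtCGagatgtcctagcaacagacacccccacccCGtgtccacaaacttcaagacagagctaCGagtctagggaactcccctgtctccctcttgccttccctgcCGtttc
Doc2g had no CpG here, as in 1.26% of the promoters of coding genes at 1 FPKM or more, while Cplx2 had 7 and Cplx1 had 15. RefSeq promoters were at hand for 68 of the 93 members (89 promoters), with a median of 12 CpG in the same window. The GC box letters GGGGCGG were searched on both strands of the 300 bases around the start. They were found for 32 of the 68 members (47.1%), against 48.1% of 9945 coding genes at 1 FPKM or more and 25.5% of all 27025 symbols with a promoter. The CRE letters TGACGTCA were found for 1 of the 68 members, Syn1 (1.47%), against 3.57% of the coding genes at 1 FPKM or more and 2.03% of all symbols with a promoter.

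Among the calcium sensors, DG was apart in both directions. Syt13, a synaptotagmin without the usual calcium-binding residues, stood at 10.4 and 9.77 FPKM in the SVZ samples, 42.0 in OB, 155 in DG and 13.1 in STR. Syt17 stood at 3.50 and 1.25 FPKM in the SVZ samples, 8.64 in OB, 41.3 in DG and 1.47 in STR. For both, DG was highest, OB came next and SVZ and STR overlapped or lay close together. Syt6 went the other way, at 41.0 and 60.7 FPKM in the SVZ samples, 72.4 in OB, 1.10 in DG and 57.9 in STR. Syt9, a fast calcium sensor in mouse striatal neurons, stood at 5.27 and 5.03 FPKM in the SVZ samples, 13.6 in OB, 0.717 in DG and 5.93 in STR. DG was the lowest library for both and was far below the spread of the other 4. The difference of DG from SVZ was 3.81 ± 0.38 units for Syt13 (SE; limma adjusted p = 0.173) and -4.60 ± 0.46 units for Syt6 (SE; limma adjusted p = 0.173). Within the library set, against the first SVZ sample alone, these differences were 3.77 and -4.32 units.

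Syt2, a fast calcium sensor best known from hindbrain synapses and parvalbumin interneurons, was highest in STR. It stood at 8.45 and 5.40 FPKM in the SVZ samples, 1.06 in OB, 0.969 in DG and 19.9 in STR. STR exceeded both SVZ samples, and these exceeded OB and DG. The difference of SVZ from STR was -1.43 ± 0.46 units (SE; limma adjusted p = 0.971), and -1.71 with the second SVZ sample alone. Syt1, the main fast sensor of the forebrain, was high everywhere, at 215 and 264 FPKM in the SVZ samples, 433 in OB, 271 in DG and 285 in STR. Syt11, which binds no calcium, was the most even sensor gene at 1 FPKM or more, between 210 and 228 FPKM in all 5 libraries. Neither reached 1 unit between any pair of regions. Syt7, a high-affinity sensor of slow release, stood at 54.4 and 37.2 FPKM in the SVZ samples, 105 in OB, 168 in DG and 31.0 in STR. Syt10, which in mouse olfactory bulb neurons is known to drive release of the growth factor IGF-1, stood at 9.58 and 13.4 FPKM in the SVZ samples, 27.7 in OB, 14.8 in DG and 4.26 in STR. STR had the lowest Syt10 and OB the highest. Of the Sytl genes, which bind Rab27, Sytl2 reached 8.44 FPKM and Sytl5 reached 7.77 FPKM, both in STR, while Sytl3 stayed at or under 0.206 FPKM. Syt4 lay between 31.3 FPKM in DG and 77.0 in STR, and Syt5 between 46.1 FPKM in STR and 142 in the first SVZ sample. None of the genes Syt3, Syt4, Syt5, Syt12, Syt14 and Syt16 spanned 2 units over the regions. Syt3 ranged from 10.8 to 37.1 FPKM, Syt12 from 7.65 to 20.8, Syt14 from 3.34 to 6.93 and Syt16 from 9.15 to 26.1, with Syt16 lowest in OB. Sytl1 reached 1.59 FPKM, in OB. The lowest synaptotagmin, Syt8, stayed at or under 0.0708 FPKM.

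**Figure D3:**
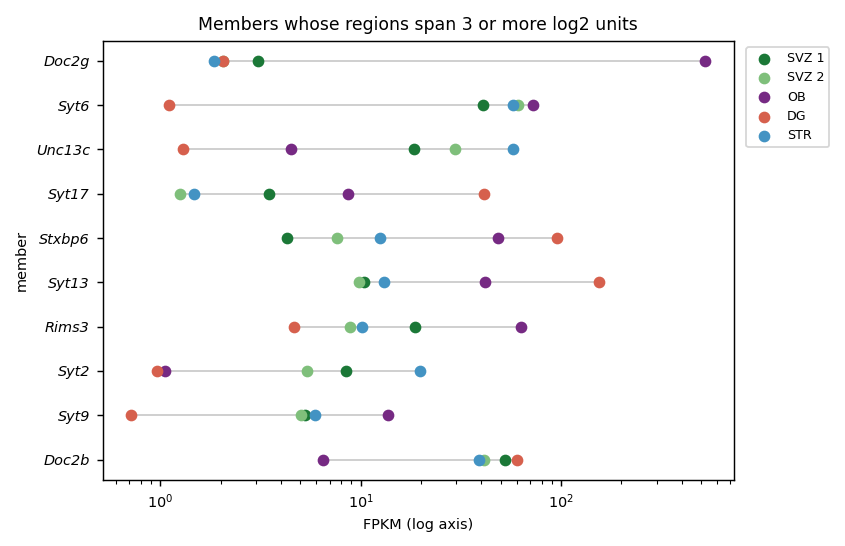
FPKM (log axis) in each library of the 10 members at 5 FPKM or more whose highest and lowest regions lay 3 or more log2 units apart, ordered by that span. Doc2g stands alone in OB at 524 FPKM, and DG is the highest library for Syt13, Syt17, Stxbp6 and Doc2b and the lowest for Syt6, Unc13c, Rims3, Syt2 and Syt9.

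Priming and docking genes differed by family. Unc13a, the main vesicle priming factor of forebrain synapses, stood at 67.3 and 61.3 FPKM in the SVZ samples, 84.1 in OB, 98.5 in DG and 66.9 in STR. Unc13c, a priming factor best known from the cerebellum, stood at 18.4 and 29.7 FPKM in the SVZ samples, 4.49 in OB, 1.30 in DG and 57.8 in STR. Unc13a lay within 0.61 units over the regions, and Unc13c spanned 4.68. The share of Unc13c in the family was 19.95% and 31.1% in the SVZ samples, 4.59% in OB, 1.21% in DG and 45.0% in STR. STR was above both SVZ samples and these were above OB and DG, the same order as for Syt2. The difference of DG from STR for Unc13c was -4.68 ± 0.57 units (SE; limma adjusted p = 0.227), and -4.02 bridged through the SVZ. Unc13b, a priming factor of a subset of synapses, stayed between 3.49 and 8.77 FPKM, and Unc13d, known from blood cells, at or under 0.986 FPKM.

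Rims genes, whose products organise the active zone, differed in make-up between regions. Rims1 stood at 17.4 and 15.6 FPKM in the SVZ samples, 20.4 in OB, 39.1 in DG and 22.4 in STR. Rims3, which encodes a short Rims protein, stood at 18.6 and 8.85 FPKM in the SVZ samples, 62.8 in OB, 4.65 in DG and 10.1 in STR. Rims4, the other short form, stood at 19.6 and 10.8 FPKM in the SVZ samples, 68.2 in OB, 12.2 in DG and 12.3 in STR. Both short forms were highest in OB, and Rims1 was highest in DG. Rims1 thus made up 60.1% of Rims FPKM in DG and 12.2% in OB, against 23.9% and 29.1% in the SVZ samples and 34.4% in STR. Rims2 lay between 9.05 FPKM in DG and 20.2 FPKM in STR.
Of the Rab3 genes, small GTPases on the vesicle, Rab3a stood at 344 and 166 FPKM in the SVZ samples, 580 in OB, 436 in DG and 216 in STR. Rab3b stood at 27.0 and 13.9 FPKM in the SVZ samples, 96.2 in OB, 12.9 in DG and 11.2 in STR. OB was the highest library for both, though for Rab3a the SVZ samples differed by 1.05 units. Rab3c lay between 34.2 FPKM in DG and 88.1 FPKM in the second SVZ sample. Rab3d was the lowest of the family at 1.2 to 2.66 FPKM outside DG and 6.51 FPKM in DG.

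**Figure D4:**
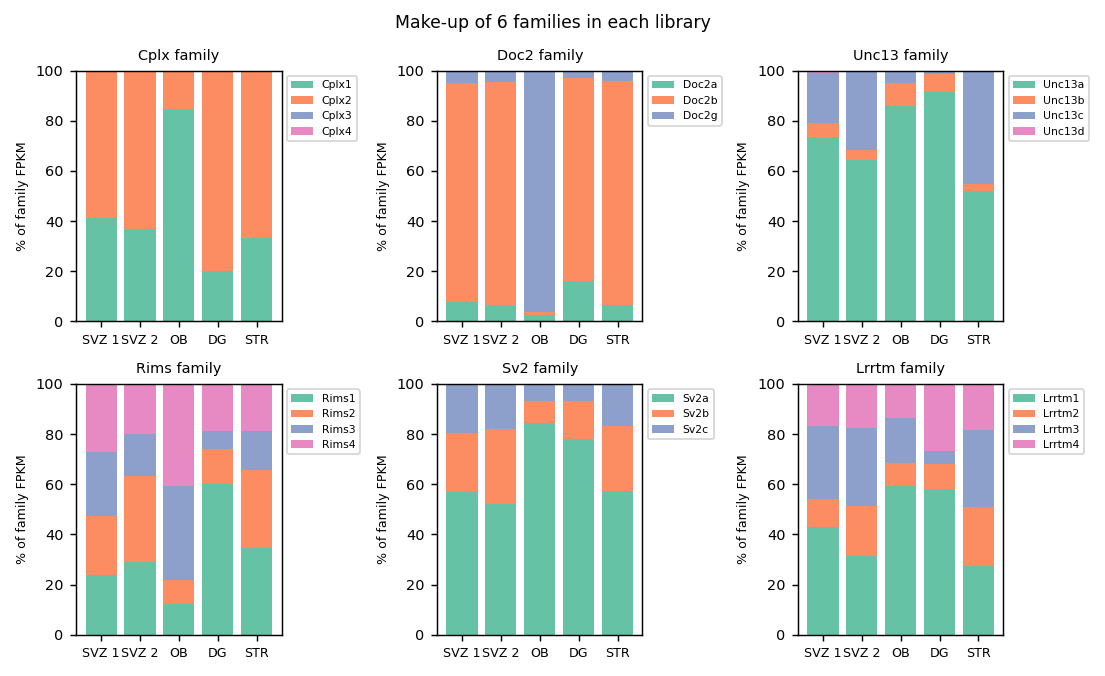
Share of each member in the summed FPKM of its family (bars, in percent, 1 bar per library) for 6 families. OB stands apart by Doc2g at 96.2% and Cplx1 at 84.7%, DG by Rims1 at 60.1% and STR by Unc13c at 45.0%.

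SNARE genes of the plasma membrane were the evenest group. Of the 18 syntaxin and SNAP genes at 1 FPKM or more, 14 lay within 1 unit over the 4 regions, against 48.9% of 14029 coding genes and 28 of all 84 members. Snap25, the neuronal SNAP protein, had the highest mean level of its family and stood at 664 and 639 FPKM in the SVZ samples, 998 in OB, 1239 in DG and 904 in STR. The difference of DG from SVZ was 0.93 ± 0.69 units (SE; limma adjusted p = 0.702), and no pair of regions reached 1 unit. Stx1a, a neuronal syntaxin of the release site, stood at 26.6 and 12.8 FPKM in the SVZ samples, 58.4 in OB, 48.0 in DG and 13.9 in STR. Stx1a was highest in OB, but the 2 SVZ samples differed by 1.00 unit. The syntaxins of endosomes and of the Golgi, such as Stx6, Stx7, Stx12 and Stx16, each lay within 0.67 units over the regions. Snap91, which carries the SNAP name but encodes the clathrin assembly protein AP180, stood at 49.7 and 47.4 FPKM in the SVZ samples, 152 in OB, 109 in DG and 53.2 in STR. OB and DG exceeded the other libraries for Snap91. Snap23, the form found in most tissues, had the lowest mean of its family, at 8.19 to 10.1 FPKM. Stx19 stayed at or under 0.216 FPKM. The genes Snap29, Snap47, Stx2, Stx3, Stx4a, Stx5a, Stx8, Stx17 and Stx18, stood between 3.73 FPKM for Stx8 in the second SVZ sample and 170 FPKM for Snap47 in DG. Of these only Stx5a spanned more than 1 unit, at 1.13.

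The vesicle SNARE Vamp2 stood at 459 and 325 FPKM in the SVZ samples, 895 in OB, 649 in DG and 399 in STR, and made up at least 80.7% of VAMP FPKM in every library. Vamp1, the other neuronal form, stood at 15.2 and 12.6 FPKM in the SVZ samples, 25.4 in OB, 42.8 in DG and 36.2 in STR. Vamp1 was lowest in SVZ, and STR exceeded SVZ by more than the spread of the SVZ samples, with a difference of SVZ from STR of -1.32 ± 0.40 units (SE; limma adjusted p = 0.971). Vamp3 lay between 13.3 and 24.8 FPKM, Vamp4 between 19.8 and 33.2, Vamp8 between 5.98 and 17.3 and Vamp5 between 0.516 and 2.27. The 2742-base transcript of Vamp1 made up 36.2% and 53.5% of Vamp1 FPKM in the SVZ samples, 47.6% in OB, 48.6% in DG and 88.2% in STR. STR lay outside the other 4 libraries, within its set as well. Among the syntaxin-binding genes, Stxbp6 (amisyn), which binds syntaxin in place of a VAMP, stood at 4.28 and 7.62 FPKM in the SVZ samples, 48.4 in OB, 95.6 in DG and 12.5 in STR. DG and OB were far above SVZ and STR, and the difference of DG from SVZ was 3.84 ± 0.51 units (SE; limma adjusted p = 0.180). Stxbp4 was lowest and even, at 4.26 to 6.00 FPKM. Stxbp2 ranged from 13.3 to 26.9 FPKM, Stxbp3a from 6.00 to 11.1, Stxbp5 (tomosyn, an inhibitor of SNARE assembly) from 13.3 to 30.1 and Stxbp5l from 11.4 to 22.7.

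Of the 8 vesicle protein genes, Sv2b and Sv2c were highest in SVZ by its mean only, and the others were highest in OB or DG. For Sv2b, STR was at 46.35 FPKM, with the first SVZ sample at 46.57 and the second at 46.31. For Sv2c too, STR lay between the SVZ samples, so neither gene set SVZ apart from STR. Sv2a, a transporter-like protein of nearly all synaptic vesicles, stood at 112 and 80.4 FPKM in the SVZ samples, 343 in OB, 135 in DG and 104 in STR. It made up 56.9% and 52.0% of Sv2 FPKM in the SVZ samples, 84.4% in OB, 78.2% in DG and 57.5% in STR. Sv2c, the form best known from the basal ganglia, stood at 38.6 and 27.8 FPKM in the SVZ samples, 26.9 in OB, 11.5 in DG and 30.7 in STR. DG had the lowest Sv2c and the lowest Sv2b, which ranged from 26.0 to 46.6 FPKM. Syn1, a phosphoprotein that holds vesicles in reserve, stood at 107 and 67.4 FPKM in the SVZ samples, 314 in OB, 230 in DG and 82.0 in STR. Its relative Syn2 stood at 107 and 68.8 FPKM in the SVZ samples, 185 in OB, 214 in DG and 78.0 in STR. Both were higher in OB and DG than in SVZ and STR, and the ratio of Syn1 to Syn2 was 0.999 and 0.980 in the SVZ samples, 1.70 in OB, 1.08 in DG and 1.05 in STR. Syn3, a lower-level member, stayed between 10.2 and 15.2 FPKM. Syp (synaptophysin), the highest of these 8 genes in every library, stood at 312 and 275 FPKM in the SVZ samples, 676 in OB, 582 in DG and 258 in STR.

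The adhesion genes differed in both directions. Nrxn2 stood at 62.3 and 42.6 FPKM in the SVZ samples, 212 in OB, 94.1 in DG and 42.0 in STR. Nrxn3 stood at 42.7 and 50.6 FPKM in the SVZ samples, 79.3 in OB, 19.1 in DG and 54.9 in STR. Nrxn2 was thus highest in OB and Nrxn3 was highest in OB and lowest in DG. The 6060-base Nrxn2 transcript stood at 101 FPKM in OB and between 9.65 and 11.9 FPKM elsewhere, which was 47.4% of Nrxn2 FPKM in OB and 12.6% to 28.1% elsewhere. The difference of OB from SVZ for Nrxn2 was 2.02 ± 0.48 units (SE; limma adjusted p = 0.229), and that of DG from SVZ for Nrxn3 was -1.24 ± 0.40 units (SE; limma adjusted p = 0.339).
The neuroligins were closer together. Nlgn1, found at excitatory synapses, stood at 17.7 and 19.1 FPKM in the SVZ samples, 9.70 in OB, 13.5 in DG and 24.0 in STR. Nlgn2, found at inhibitory synapses, stood at 83.2 and 55.5 FPKM in the SVZ samples, 133 in OB, 78.6 in DG and 57.9 in STR. Nlgn3, found at both kinds, stood at 49.0 and 28.0 FPKM in the SVZ samples, 56.7 in OB, 62.3 in DG and 28.2 in STR. OB had the lowest Nlgn1 and the highest Nlgn2.
For the Lrrtm genes, which encode postsynaptic partners of neurexins at excitatory synapses, DG was high for some and low for another. Lrrtm1 stood at 43.1 and 32.0 FPKM in the SVZ samples, 43.3 in OB, 73.2 in DG and 28.7 in STR. Lrrtm4 stood at 17.0 and 17.9 FPKM in the SVZ samples, 9.93 in OB, 33.4 in DG and 19.3 in STR. Lrrtm3 stood at 29.2 and 31.7 FPKM in the SVZ samples, 13.2 in OB, 6.76 in DG and 32.3 in STR. DG had the highest Lrrtm1 and Lrrtm4 and the lowest Lrrtm3. Lrrtm2 was lowest in OB, at 11.4 and 20.2 FPKM in the SVZ samples, 6.73 in OB, 12.5 in DG and 24.5 in STR. Lrrtm1, Lrrtm2 and Lrrtm3 each lie inside an alpha-catenin gene in the deposited loci, where reads could not be told apart by strand.

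Across the set, no member passed limma's adjusted p of 0.05 in any of the 6 pairs of regions, and neither did any other gene (0% of all genes tested in each pair). At an unadjusted p under 0.05 the model listed 3 of 82 members for SVZ against STR (3.66%, against 4.75% of all genes tested), 19 of 84 for OB against STR (22.6%, against 14.1%) and 14 of 83 for DG against STR (16.9%, against 11.9%). It listed 20 of 84 for OB against SVZ (23.8%, against 14%), 16 of 83 for DG against SVZ (19.3%, against 14.1%) and 14 of 83 for OB against DG (16.9%, against 12.6%). The spread in that model came from the SVZ pair alone, with 1 residual degree of freedom, and OB, DG and STR were assumed to vary like it. Members were therefore counted by size, at 1 unit or more, beside the share of coding genes past the same size. That share was computed at the main setting only. Counts after scaling, bridging or leaving out an SVZ sample have no such share and are not read as traits of the members. SVZ and STR were close. Of 82 members tested, 2 were higher in SVZ (Syt5 and Syt10; 7% of coding genes) and 5 were higher in STR (Stxbp6, Syt2, Sytl5, Unc13c and Vamp1; 1.12% of coding genes). Within the set, with the second SVZ sample alone, 1 was higher and 2 were lower. The median member difference was 0.06 units, against 0.24 over coding genes.

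The pairs with the most members past 1 unit were OB against STR and OB against SVZ, and OB against STR also had the most coding genes past it. Against STR, 30 of 84 members were at least 1 unit higher in OB (35.7%, against 30.6% of coding genes) and 10 were lower (11.9%, against 6.69%). The median member was 0.54 units higher, against 0.53 over coding genes, so the higher count stood near its background. After scaling each library by its median ratio over coding genes the split was 17 higher and 16 lower, and bridged through the SVZ it was 19 higher and 9 lower. No share of coding genes was computed at those settings. Against SVZ, 26 were higher (31.0%, against 14.8% of coding genes) and 9 were lower (10.7%, against 7.18%), with 17 and 11 after scaling and 22 and 7 with the first SVZ sample alone, within the set. The median member was 0.46 units higher, against 0.24 over coding genes. OB exceeded DG by 1 unit or more for 15 of 83 members (18.1%, against 14.4% of coding genes) and lay below it for 7 (8.43%, against 5.28%), with 11 and 12 after scaling. Here too the higher count stood near its background. By role, OB exceeded SVZ by 1 unit or more for 5 of 8 vesicle protein genes and lay below it for none, while 7 of 21 calcium sensors were higher and 5 were lower.

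DG showed a mixture of both directions. Against STR, 19 of 83 members were at least 1 unit higher (22.9%, against 17.5% of coding genes) and 12 were lower (14.5%, against 8.28%). Scaling gave 12 higher and 17 lower, and the bridged values gave 7 higher and 12 lower, with no share of coding genes at those settings. Against SVZ, 15 were higher (18.1%, against 7.97% of coding genes) and 12 were lower (14.5%, against 10.6%), and scaling left both counts at 15 and 12. With the first SVZ sample alone, 12 were higher and 12 lower. The median member was 0.31 units higher in DG than in SVZ, against -0.02 over coding genes. Comparisons that name the same region share its library, so their counts are not independent.

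Members at least 1 unit beyond every library of the other regions were counted as well, since such a gap holds across both library sets. In OB, 10 of 84 lay above all others (among them Cplx1, Cplx3, Doc2g, Nrxn2, Rab3b, Rims3, Rims4, Sv2a and Syt9), against 5.42% of 14029 coding genes, and 2 lay below (Doc2b and Syt16), against 0.855%. In DG, 4 lay above (Cplx2, Rab3d, Syt13 and Syt17), against 2.51%, and 5 lay below (Nrxn3, Sv2c, Syt6, Syt9 and Unc13c), against 1.85%. STR had 1 above (Syt2, against 0.15%) and 1 below (Syt10, against 0.527%). SVZ had none above or below, against 1.48% and 0.0927% of coding genes. After scaling, Cplx1, Doc2g, Rab3b, Rims3, Rims4 and Sv2a remained in OB above the others, 6 in all, and Doc2b and Syt16 below. Cplx2, Rab3d, Syt13 and Syt17 remained in DG above the others, and Syt6, Syt9 and Unc13c below. Syt2 remained above in STR, and Syt10 did not remain below. Scaling also added members: Sytl5 and Unc13c joined Syt2 above in STR, which made 3, Cplx2 joined those below in OB, and Stxbp6 joined those above in DG.
By the region of its highest level, OB held 35 of the 84 members (41.7%, against 48.2% of coding genes), DG 27 (32.1%, against 19.2%), STR 14 (16.7%, against 15.8%) and SVZ 8 (9.52%, against 16.8%).

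The 2 SVZ samples were 1 unit or more apart for 4 of 82 members, Cplx1, Rab3a, Stx1a and Syt3, against 13.6% of coding genes. All 4 were higher in the first SVZ sample, as were 56 of the 82 members. The median difference of the first SVZ sample from the second was 0.25 units over 84 members and 0.32 over 14029 coding genes. Some transcript shares followed the library sets rather than the regions: the 1451-base Rab3a transcript, the 3175-base Syn1 transcript and the 6342-base Syt7 transcript were listed at 0 in the second SVZ sample and STR, and were above 0 in the other 3 libraries. For Stx16, the 3736-base transcript made up 86.4% in the first SVZ sample, 77.8% in OB and 58.2% in DG, against 0% in the second SVZ sample and 10.1% in STR. Of the 21 members with several transcripts and at least 5 FPKM in every library, 7 had a transcript whose share moved by 50 percentage points or more over the libraries (Nrxn3, Rims1, Stx16, Stxbp5l, Sv2b, Synpr and Vamp1). In 9 of the 21 a transcript had a share that differed by 20 percentage points or more between the SVZ samples. The 3982-base Rims1 transcript is an example of both, at 64.8% and 23.5% of Rims1 FPKM in the SVZ samples, 1.65% in OB, 77.8% in DG and 28.9% in STR. Neither count was made over other genes with several transcripts, so the usual rate of such shifts in these libraries is not known.

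**Figure D5:**
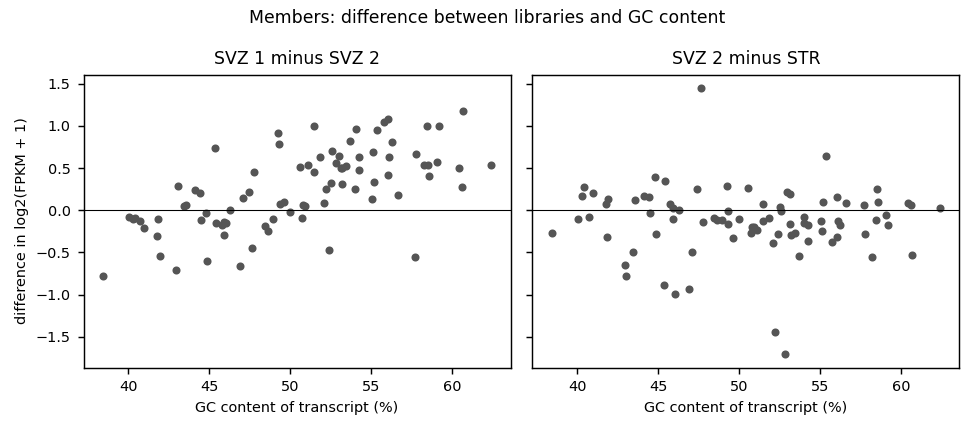
Difference in log2(FPKM + 1) of each of the 84 members (points) between the 2 SVZ samples (left) and between the second SVZ sample and STR (right), against the GC content of its transcript in percent. The left panel climbs with GC content (Spearman rho = 0.666) and the right panel does not (rho = -0.0813).

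Other genes of the pathway, from lists of active zone, vesicle recycling and adhesion genes that are no members, gave counts for 56 tested genes. Against STR, 24 were at least 1 unit higher and 6 lower in OB (30.6% and 6.69% of coding genes), and 19 were higher and 6 lower in DG (17.5% and 8.28%), while SVZ had 1 higher and 1 lower (7% and 1.12%). Those comparisons of OB and DG cross the library sets. Against the mean of both SVZ samples, 19 were higher and 6 lower in OB (14.8% and 7.18% of coding genes). In DG, 16 were higher and 8 lower (7.97% and 10.6%). The second SVZ sample lies in the set of STR, so these counts cross the sets in part. No count was made for these genes with the first SVZ sample alone. None passed limma's adjusted p of 0.05. In the active zone and fusion list, DG had 10 of 17 genes at least 1 unit higher than in STR, none lower and a median of 1.33 units, against 0.26 over coding genes. Its Rph3a (rabphilin, a Rab3-binding protein) stood at 53.2 and 49.1 FPKM in the SVZ samples, 15.8 in OB, 277 in DG and 75.0 in STR. Nsf, the ATPase that takes used SNARE complexes apart, stood at 184 and 127 FPKM in the SVZ samples, 269 in OB, 515 in DG and 151 in STR. DG had the highest value of both, and OB the lowest Rph3a. Among the recycling genes, Dnm1 (dynamin, which pinches vesicles off) stood at 213 and 109 FPKM in the SVZ samples, 531 in OB, 491 in DG and 155 in STR. Cbln1, a secreted partner of neurexins, stood at 0.683 and 0.835 FPKM in the SVZ samples, 43.8 in OB, 1.94 in DG and 1.17 in STR. Lphn2, an adhesion receptor, stood at 27.3 and 21.4 FPKM in the SVZ samples, 3.03 in OB, 0.94 in DG and 32.2 in STR. OB was the high library for Cbln1, and SVZ and STR were high for Lphn2.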

How the data were processed

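The submitters' processing notes name CASAVA, TopHat 1.2.0, Cufflinks 1.0.0 and the build mm9, without their role or order. The deposited table holds FPKM values made by the authors for 37142 transcripts: 28150 from RefSeq and 8992 from their lncRNA catalogue. FPKM keeps no read counts. At a tolerance of 0.1 step, 24.3% to 32.9% of low values lay near whole multiples of a step, against 20% by chance, so the depth is unknown and no counting interval is given. Every value column was matched to a sample by its label. Paired-end and single reads are both mentioned in the design, without saying which sample had which.

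FPKM was summed per symbol and compared as log2(FPKM + 1). The limma package 3.58.1 (R 4.3.3), with an empirical Bayes trend, was fitted to all genes and all 5 libraries in 4 region groups, and tested on simulated data. Benjamini-Hochberg adjustment of p-values ran over all genes that reached 1 FPKM in either region compared. They measure only the spread of the SVZ pair. Members were counted at 1 unit or more. The alternatives were a pseudocount of 0.1, minimums of none and 5 FPKM, median ratio scaling, the highest transcript per symbol, leaving out each SVZ sample, bridging through the SVZ and limma without trend. Named members were a core list of release and adhesion genes, those at 5 FPKM or more whose regions span 3 units, the highest and the lowest of each family, and those whose SVZ samples differ by over 1.5 units, of which there were none. Members named outside this rule, in counts of 5 or fewer and for family make-up, were picked with their values in view. The members, lists and alternatives were chosen with earlier results of these data known. Some members are counted in totals and not reported by name here. Map2, a listed neuronal marker, was not found under that symbol. Coordinates of loci are mm9 as deposited, and a locus spans all genes that overlap there. RefSeq promoters and GENCODE M21 transcript starts are GRCm38. GC content came from GENCODE M21 transcripts. Python 3.11.15, pandas 2.3.3, numpy 2.4.6, scipy 1.17.1 and matplotlib 3.10.9 were used.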

Additional observations from a re-analysis of the deposited data

Results flagged for a closer look

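Transcripts of the authors' lncRNA catalogue that carry a member's symbol were in none of the comparisons above. There were 20 such transcripts under 13 symbols, and 3 reached 5 FPKM. A 716-base catalogue transcript of Nrxn2 stood at 8.66 and 9.02 FPKM in the SVZ samples, 0.735 in OB, 0.991 in DG and 2.59 in STR, and its SVZ level exceeded that of the control tissue STR by 1.455 on the log2(FPKM + 1) scale. A 519-base catalogue transcript of Nrxn2 stood at 7.08 and 1.33 FPKM in the SVZ samples, 5.73 in OB and 1.07 in DG, was listed at 0 in STR, and in OB exceeded STR by 2.752 on that scale. The SVZ samples lay close together for the first and far apart for the second, and neither difference was tested.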

How the results depend on the processing

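No paired analysis was possible because OB, DG and STR have 1 sample each. Counts of members by pair moved by over 1.5 times in 10 recomputed counts and by less in 66. These recomputed counts have no share of coding genes at the same setting beside them. Median ratio scaling gave 0 members higher in SVZ than in STR, 17 higher and 16 lower in OB than in STR, 12 higher in DG than in STR, 17 higher in OB than in SVZ and 12 lower in OB than in DG. Bridging through the SVZ gave 19 higher in OB and 7 higher in DG than in STR. Differences of single genes moved as well. Bridged, OB minus STR went from 2.01 to 0.92 units for Cplx1, from 1.42 to 0.37 for Rab3a and from 1.21 to 1.32 for Synpr. With the highest transcript per symbol, the share of Nrxn2 in its family in OB went from 64.5% to 50.5%, while that of Cplx1 stayed at 84.7%. Leaving out an SVZ sample gave 1 to 3 members higher and 2 to 6 lower in SVZ than in STR. The other counts, including limma's 0 calls with a pseudocount of 0.1 or without trend, stayed within 1.5 times. At an unadjusted p under 0.05, limma without trend listed 4 members for SVZ against STR (4.88%, against 3.74% of all genes), 23 for OB against STR (27.4%, 12.6%), 15 for DG against STR (18.1%, 10.7%), 24 for OB against SVZ (28.6%, 12.6%), 20 for DG against SVZ (24.1%, 12.6%) and 12 for OB against DG (14.5%, 10.7%). With a pseudocount of 0.1 the counts were 1 (1.22%, 5.22%), 17 (20.2%, 13.3%), 14 (16.9%, 12.04%), 21 (25%, 13.4%), 16 (19.3%, 14.7%) and 11 (13.3%, 11.9%) in the same order. Of the counts of members beyond every other library, an analysis added after the data were seen, 7 moved by over 1.5 times and 49 did not. The cause was not tested. The unknown depth limits what can be said of members under 1 FPKM.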

Other observations

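Another catalogue transcript, of Syt12 and 426 bases long, stood at 10.3 and 7.36 FPKM in the SVZ samples, 11.1 in OB, 2.14 in DG and 9.03 in STR. DG was its lowest library, as it was for the RefSeq transcripts of Syt12, at 20.8 and 13.1 FPKM in the SVZ samples, 20.1 in OB, 7.65 in DG and 14.4 in STR.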
